A study of Mus musculus with 40 samples.

Results

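The 10 genes described here are made almost exclusively in oocytes and were read in whole mouse ovaries after acute p53 activation. They were chosen by name, and all 10 were found among the 18024 genes of the deposited table. Zp1, Zp2 and Zp3 encode the glycoproteins of the zona pellucida, the coat of the egg. Gdf9 and Bmp15 encode growth factors that the oocyte sends to the granulosa cells around it. Nlrp5 (also called Mater) and Ooep encode subunits of the subcortical maternal complex, which the embryo needs for its first divisions. Oosp1 encodes a secreted oocyte protein. Figla and Nobox encode transcription factors of the oocyte.

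As background, an oocyte grows inside a follicle of granulosa cells and stores RNA and protein for the embryo. FIGLA, a basic helix-loop-helix factor, binds E-boxes (letters CANNTG) and is required for zona pellucida gene expression. NOBOX, a homeodomain factor, binds elements such as TAATTG and TAATTA and is known to act on Gdf9 and Bmp15 in mice. Primordial oocytes are among the most sensitive cells of the body to DNA damage, where TAp63, a relative of p53 encoded by Trp63, drives their death through PUMA (Bbc3) and NOXA (Pmaip1).

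The series measured RNA in 5 tissues of C57BL/6J mice aged 60 days, 24 h after p53 activation. All animals carried 1 null Mdm2 allele and the Cag-CreERTg transgene, a Cre recombinase fused to an oestrogen receptor domain under the widely active Cag promoter. Tg mice were Mdm2+/- Cag-CreERTg and kept a working Mdm2 allele, whereas FMTg mice were Mdm2FM/- Cag-CreERTg and lost Mdm2, the ubiquitin ligase that restrains p53. Each tissue gave 3 Tg and 5 FMTg libraries, 40 in all from 13 mice, and the Tg libraries of all tissues came from just 3 animals. The deletion is not specific to oocytes, and the agent and dose that activated Cre and the nature of the FM allele are not stated in the labels. FMTg replicates 4 and 5 came from mice with lower animal numbers than the others and are called the low-numbered mice. In a whole ovary, fewer oocytes and less RNA per oocyte cannot be told apart.

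Promoters of 4 of the genes are shown as a description. The 10 genes moved together from library to library. Nlrp5 and Bmp15 are the genes whose share of the oocyte reads did not overlap between genotypes. The part of the promoters in either pattern was not tested. The sequences are the 250 bases before the RefSeq start on GRCm38.p6, 5′ to 3′ on the gene's strand. Capitals mark the E-boxes CACGTG and CACCTG and the NOBOX-type elements TAATTG and TAATTA, searched on both strands, with no overlap between matches. Other CANNTG forms are not marked. Zp3 (chr5:135979855-135980104, plus strand):
Zp3: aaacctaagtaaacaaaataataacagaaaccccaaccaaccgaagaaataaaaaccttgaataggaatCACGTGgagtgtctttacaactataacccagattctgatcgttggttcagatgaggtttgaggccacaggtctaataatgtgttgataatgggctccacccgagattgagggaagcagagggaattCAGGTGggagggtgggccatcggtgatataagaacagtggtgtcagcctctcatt
Nobox (chr6:43309555-43309804, minus strand):
Nobox: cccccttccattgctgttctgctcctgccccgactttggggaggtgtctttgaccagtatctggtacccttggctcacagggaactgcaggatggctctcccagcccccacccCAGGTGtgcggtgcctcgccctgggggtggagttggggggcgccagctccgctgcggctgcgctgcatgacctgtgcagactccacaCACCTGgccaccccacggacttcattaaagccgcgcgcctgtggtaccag
Nlrp5 (chr7:23385639-23385888, plus strand):
Nlrp5: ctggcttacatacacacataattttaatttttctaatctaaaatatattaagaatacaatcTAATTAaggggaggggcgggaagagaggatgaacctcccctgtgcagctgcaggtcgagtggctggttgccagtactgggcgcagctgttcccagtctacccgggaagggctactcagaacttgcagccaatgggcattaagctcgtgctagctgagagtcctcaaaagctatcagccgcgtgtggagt
Bmp15 (chrX:6320725-6320974, minus strand):
Bmp15: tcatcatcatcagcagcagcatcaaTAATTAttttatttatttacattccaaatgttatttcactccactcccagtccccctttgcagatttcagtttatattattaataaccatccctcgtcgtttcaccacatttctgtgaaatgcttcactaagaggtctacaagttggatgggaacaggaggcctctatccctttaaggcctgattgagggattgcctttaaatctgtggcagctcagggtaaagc

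The Zp3 window held CACGTG with its first base at -181 and CAGGTG, which is CACCTG on the other strand, at -55, counted from the start. Nobox held the E-box CACCTG at -137 and at -50, on opposite strands. Nlrp5 held TAATTA at -189 in the window shown, while a second Nlrp5 start in the table, further into the gene, held none of the 4 elements. Bmp15 held TAATTA at -225. Counting any CANNTG, marked or not, the windows shown held 3 in Zp3, 2 in Nobox, 2 in Nlrp5 and 1 in Bmp15. In windows not shown, Oosp1 held CACCTG at -249 and -59, Figla held it at -173, and Ooep held TAATTG at -195. Of 27025 mouse promoters of the same length, 6.05% held CACGTG, 17.1% CACCTG, 7.34% TAATTG and 4.90% TAATTA, and 66.0% held some CANNTG. The table had 7 of the 10 genes in 8 entries, 2 of them for Nlrp5. A match is a description of letters, not evidence of binding.

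The genes lie on 7 chromosomes of GRCm38 in GENCODE M21. Zp1 (ENSMUSG00000024734.8, chromosome 19, 10914287 to 10920632) and Oosp1 (ENSMUSG00000041857.10, chromosome 19, 11667460 to 11691150) share a chromosome, as do Zp2 (ENSMUSG00000030911.7, chromosome 7, 120126772 to 120145291) and Nlrp5 (ENSMUSG00000015721.18, chromosome 7, 23385889 to 23441922), and Figla (ENSMUSG00000030001.4, chromosome 6, 86016171 to 86020996) and Nobox (ENSMUSG00000029736.15, chromosome 6, 43303674 to 43309554). The others are Zp3 (ENSMUSG00000004948.12, chromosome 5, 135980099 to 135988624), Gdf9 (ENSMUSG00000018238.6, chromosome 11, 53431023 to 53437904), Bmp15 (ENSMUSG00000023279.7, chromosome X, 6314107 to 6320721) and Ooep (ENSMUSG00000032346.7, chromosome 9, 78376109 to 78378725). No member shares exon bases with another annotated gene. Gdf9 is the closest to a neighbour, 192 bases from Uqcrq on the opposite strand.

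Values are log2 variance-stabilised values, on which a gene without reads stands at 1.65, and read numbers recovered from them. Mdm2, the targeted gene, had log2 values of 9.94, 9.65 and 9.89 in Tg ovaries. In FMTg ovaries they were 10.34, 10.98, 11.12, 10.28 and 10.25, higher in all FMTg libraries. The difference was 0.77 ± 0.23 (SE, limma adjusted p = 0.515) and did not pass the test. Of all genes tested in the ovary, 5.80% had groups that did not overlap. Mdm2 is itself induced by p53 and the labels do not say which part was removed, so the Mdm2 total does not check the deletion. The ovary libraries held 8.97 to 23.0 M (mega) reads. Tg replicate 1 of the ovary drew 29.3% of its reads from 114 pancreatic genes, against 0.141% to 6.28% in the other 7 libraries. The 18 acinar markers summed to 257220 reads per M reads (RPM) there and to 18.6 to 55729 in the others. This library also had the lowest value of all 8 for each of the 10 oocyte genes. The part of the pancreatic reads in the results was not tested. Genotype differences of the oocyte genes and of the gene lists in the ovary are also given without this library.

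The oocyte genes varied together across the ovaries. The summed reads of the 10 were 331, 2316 and 1435 in Tg replicates 1 to 3 and 4745, 1927, 1016, 3569 and 2002 in FMTg replicates 1 to 5. In RPM these were 29.5, 189 and 122 in Tg and 318, 166, 72.6, 155 and 223 in FMTg, a 10.8-fold range. Leaving the pancreatic genes out of the total raised Tg replicate 1 only to 41.8, still the lowest, with 77.4 in FMTg replicate 3 and 318 in FMTg replicate 1. FMTg replicate 1 was highest for 6 of the genes, FMTg replicate 5 for 3 (Figla, Nobox and Oosp1) and Tg replicate 2 for 1, Ooep. The mean of the 10 log2 values had an SD of 0.84 over the 8 libraries, while a single gene deviated from that mean with a median SD of 0.29. Gdf9 followed it most closely (0.15) and Figla least (0.54), followed by Nlrp5 (0.52) and Ooep (0.50).

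**Figure D1:**
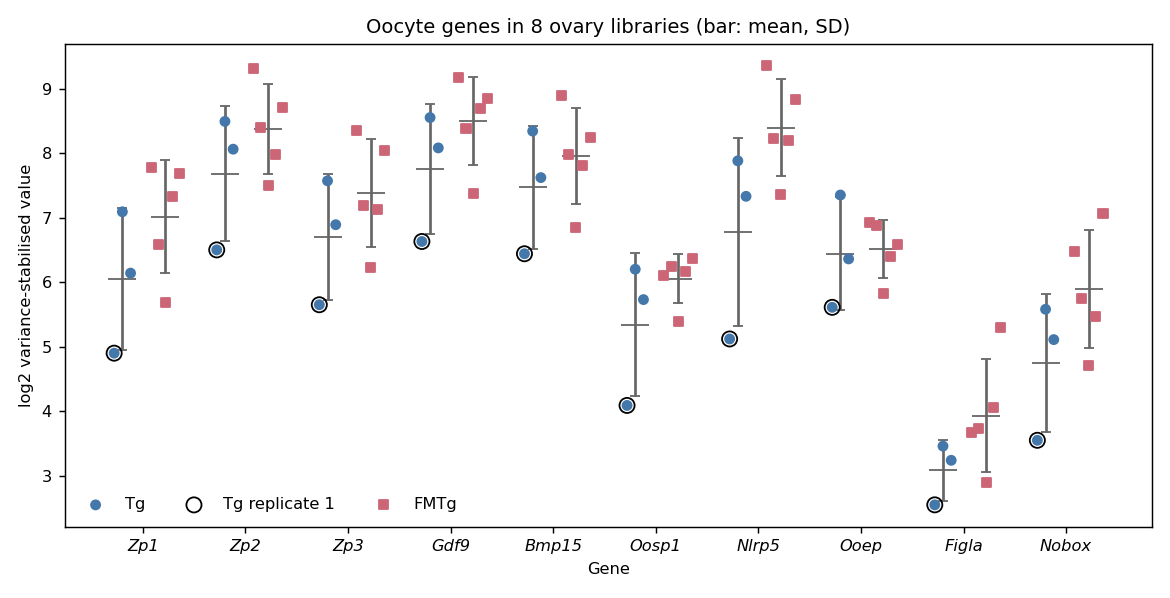
Log2 variance-stabilised values of the 10 oocyte genes in the 3 Tg (circles) and 5 FMTg (squares) ovary libraries, with the mean and SD of each group as grey bars. Tg replicate 1, ringed, is the lowest library for 10 of 10 genes.

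The genotype comparison asks whether oocyte transcripts changed in the ovary after Mdm2 was lost. None of the 10 genes passed the test over all genes (limma, adjusted p of at least 0.720), and percent called among the 16486 genes tested was 0%. With voom on the recovered reads 0 of the 10 passed as well. All 10 means were higher in FMTg with limma on the deposited values, 9 with voom, where Ooep was at -0.01. The median log2 difference was 0.73, against -0.02 over all genes tested. Without Tg replicate 1 the median was 0.17, against -0.03 over all genes, and 8 of the 10 means were higher. One gene, Nlrp5, had an unadjusted p below 0.05, where 6.36% of all genes tested had one. No member had FMTg and Tg libraries apart, and 5.80% of all genes tested did.

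The zona pellucida genes were higher in FMTg means but overlapped between groups. Zp2 had 67, 443 and 311 reads in Tg and 955, 382, 214, 535 and 344 in FMTg. Its log2 values were 6.50, 8.49 and 8.06 in Tg and 9.31, 8.39, 7.49, 7.98 and 8.70 in FMTg. Tg replicate 1 lay below all other libraries, and the other Tg ovaries lay inside the FMTg range. The difference was 0.69 ± 0.51 (SE, n = 3 Tg and 5 FMTg; limma adjusted p = 0.856). For Zp3 the reads were 35, 229 and 134 in Tg and 487, 162, 85, 291 and 215 in FMTg, with a difference of 0.69 ± 0.55 (adjusted p = 0.856). For Zp1 they were 19, 162 and 77 in Tg and 326, 104, 56, 336 and 166 in FMTg, with a difference of 0.97 ± 0.60 (adjusted p = 0.844). Without Tg replicate 1 the 3 log2 differences were 0.40 for Zp1, 0.10 for Zp2 and 0.16 for Zp3.

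The growth factor genes had higher FMTg means as well. Gdf9 had 74, 460 and 315 reads in Tg and 869, 380, 198, 884 and 378 in FMTg. Its log2 values were 6.63, 8.55 and 8.08 in Tg and 9.17, 8.38, 7.38, 8.69 and 8.84 in FMTg, and the groups overlapped. The difference was 0.74 ± 0.49 (limma adjusted p = 0.846), and 0.18 without Tg replicate 1. Bmp15, which acts with GDF9 on granulosa cells, had 64, 397 and 227 reads in Tg and 715, 285, 134, 476 and 248 in FMTg. Its difference was 0.49 ± 0.51 (adjusted p = 0.870) and turned to -0.02 without Tg replicate 1.

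Nlrp5 showed the largest genotype difference of the 10 genes, and Ooep, its partner in the subcortical maternal complex, the smallest. Nlrp5 had 23, 286 and 185 reads in Tg and 984, 339, 195, 628 and 377 in FMTg. The log2 values were 5.12, 7.88 and 7.33 in Tg and 9.35, 8.22, 7.36, 8.20 and 8.83 in FMTg, with only FMTg replicate 3 below a Tg ovary. The difference was 1.62 ± 0.63, or 3.07-fold (limma p = 0.0308, adjusted p = 0.720; two-sided exact permutation p = 0.0536, where the smallest possible is 0.0179). Without Tg replicate 1 it was 0.79. Ooep had 34, 196 and 91 reads in Tg and 176, 130, 62, 169 and 75 in FMTg, a difference of 0.08 ± 0.42 (adjusted p = 0.972) that turned to -0.34 without Tg replicate 1. Oosp1 had 9, 84 and 56 reads in Tg and 95, 81, 44, 143 and 64 in FMTg, a difference of 0.72 ± 0.48 (adjusted p = 0.846) and of 0.09 without Tg replicate 1.

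The transcription factor genes were read at the lowest depth. Nobox had 5, 52 and 34 reads in Tg and 127, 55, 25, 83 and 107 in FMTg, a difference of 1.15 ± 0.62 (limma adjusted p = 0.828) and of 0.55 without Tg replicate 1. Figla had 1, 7 and 5 reads in Tg and 11, 9, 3, 24 and 28 in FMTg, with a difference of 0.85 ± 0.55 (adjusted p = 0.846) and of 0.58 without Tg replicate 1. Both factors were highest in FMTg replicate 5, and the variance-stabilised scale understates the changes of genes with so few reads.

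**Figure D2:**
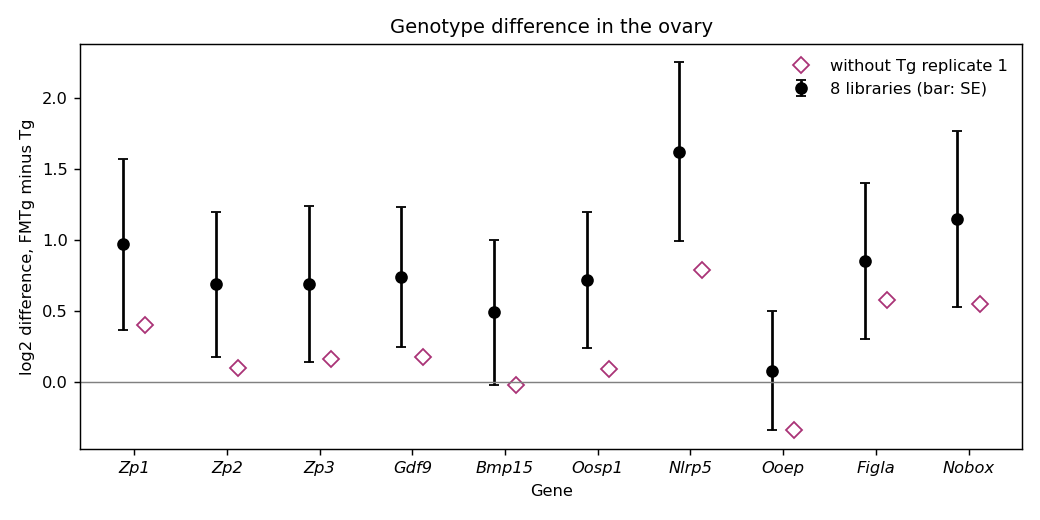
Log2 difference between FMTg and Tg ovaries for each oocyte gene from 8 libraries, with its SE as a bar, and the same without Tg replicate 1 as open diamonds. The differences run from 0.08 for Ooep to 1.62 for Nlrp5 with all libraries, and those of Bmp15 (-0.02) and Ooep (-0.34) lie below 0 without that library.

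The share of the oocyte gene reads taken by Nlrp5 lay higher in every FMTg ovary than in every Tg ovary. The share divides each gene's reads by the summed reads of the 10 in the same library, so depth and the common level cancel, and it was chosen after seeing the data. The 10 shares were compared and sum to 100% in a library, so a higher share of 1 gene lowers the others. Each p is unadjusted, 0.0179 is the smallest that 3 against 5 libraries can give, and none stays below 0.05 once adjusted for the 10 comparisons. Nlrp5 held 6.95%, 12.3% and 12.9% in Tg and 20.7%, 17.6%, 19.2%, 17.6% and 18.8% in FMTg. All 5 FMTg ovaries lay above all 3 Tg ovaries, with means of 10.7% ± 3.29 (SD, n = 3) and 18.8% ± 1.31 (n = 5). The difference was 8.06 percentage points (two-sided exact permutation p = 0.0179). In Tg replicate 1 the share rested on 23 of 331 reads, with a Wilson 95% interval of 4.67% to 10.2%. Without that library the difference was 6.17 points and the groups still did not overlap, and without the low-numbered mice it was 8.44 points.

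The share of Bmp15 lay lower in every FMTg ovary, but the groups overlapped once Nlrp5 was left out of the sum. As a share of the 10 it held 19.3%, 17.1% and 15.8% in Tg and 15.1%, 14.8%, 13.2%, 13.3% and 12.4% in FMTg, with means of 17.4% ± 1.78 and 13.8% ± 1.14. Here all FMTg ovaries lay below all Tg ovaries by a margin of 15.8% against 15.1% at the nearest pair, and the Wilson intervals of those libraries overlap. The difference was -3.68 points (exact permutation p = 0.0179), and -2.73 without Tg replicate 1. Of the reads of the 9 genes other than Nlrp5, Bmp15 held 20.8%, 19.6% and 18.2% in Tg and 19.0%, 17.9%, 16.3%, 16.2% and 15.3% in FMTg. On that measure FMTg replicate 1 lay above Tg replicate 3, and the groups overlapped (difference -2.55 points, exact permutation p = 0.0536, and -1.91 without Tg replicate 1). Per Gdf9 read the groups overlapped for Bmp15, with 0.865, 0.863 and 0.721 in Tg and 0.538 to 0.823 in FMTg (exact permutation p = 0.143). Nlrp5 per Gdf9 read stayed apart, at 0.311, 0.622 and 0.587 in Tg and 0.710 to 1.13 in FMTg (exact permutation p = 0.0179), also without Tg replicate 1.

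The remaining shares overlapped. Ooep held 10.3%, 8.46% and 6.34% in Tg and 3.71%, 6.75%, 6.10%, 4.74% and 3.75% in FMTg (exact permutation p = 0.0536). Without Tg replicate 1 its difference went from -3.35 to -2.39 points. For the other 7 genes the exact permutation p ran from 0.196 to 0.875, and their groups overlapped without that library as well. The shares of 2 of the 10 genes were thus apart. Reads relative to the 10 genes were apart between genotypes for 0.801% of the 16486 genes tested and for 9.52% of the 42 genes of the other oocyte and germline lists. Genes that do not follow the oocyte level carry the spread of the summed reads into this ratio, whereas the members largely cancel it. The 0.801% is therefore no baseline for the 2 of 10. The 4 apart among the 42 were H1foo, the oocyte linker histone, above in FMTg, and Nlrp2, Uchl1 and Dazl below.

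**Figure D3:**
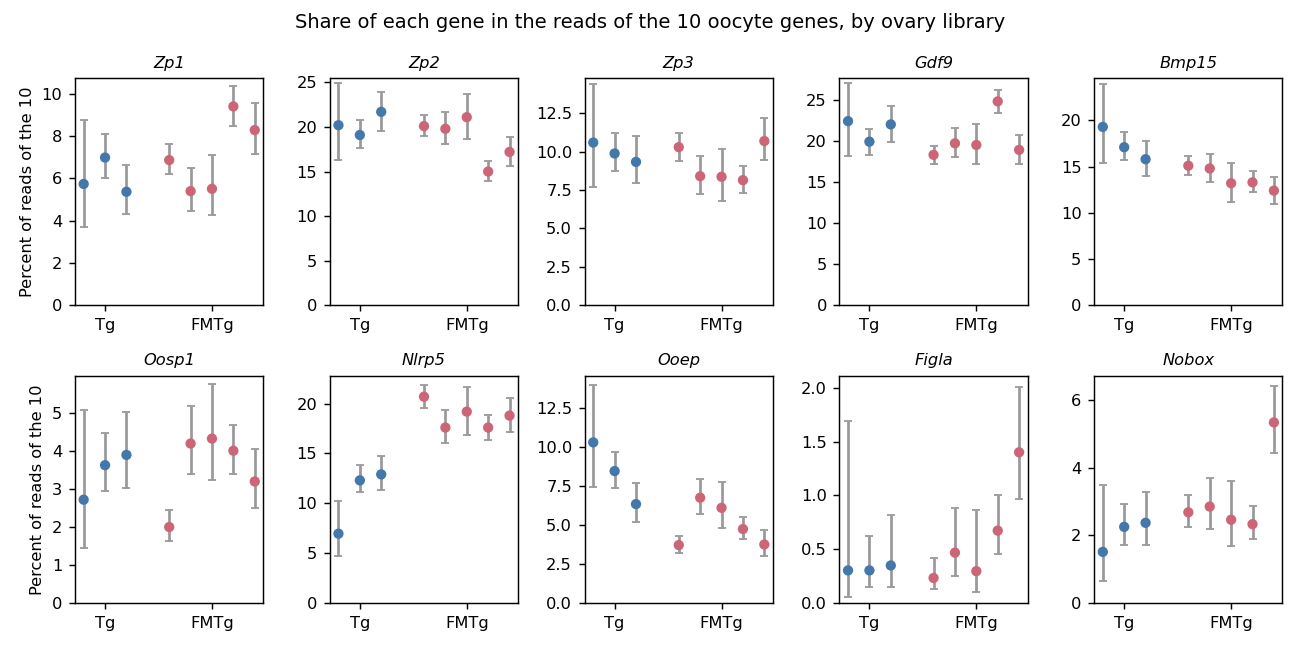
Percent of the summed reads of the 10 oocyte genes taken by each gene in each ovary library, with Wilson 95% intervals; Tg libraries left, FMTg libraries right. Nlrp5 lies at 17.6% or more in FMTg and at 12.9% or less in Tg, and Bmp15 at 15.1% or less in FMTg and 15.8% or more in Tg.

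Normalised reads per kilobase of exon give the order of the levels. Gdf9 was highest, with a geometric mean of 102 in Tg and 174 in FMTg. Zp3 and Zp2 followed at 73.0 and 72.6 in Tg and at 121 and 119 in FMTg, and were not separated, since the sign of their difference varied between libraries. Bmp15 came next (55.3 and 78.7). Nobox and Figla closed the order in both genotypes, at 9.69 and 3.69 in Tg and 26.0 and 10.4 in FMTg. In between, Ooep ranked 5 in Tg and 8 in FMTg, and Nlrp5 ranked 8 in Tg and 5 in FMTg. The gap between neighbours was within its SD over libraries for Ooep and Oosp1 in Tg, for Oosp1 and Zp1 in both genotypes, and for Nlrp5 and Oosp1, Zp1 and Ooep, and Ooep and Nobox in FMTg. In Tg the gap between Zp1 and Nlrp5 was 0.50 log2 units with an SD of 0.50.

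Granulosa cells surround the oocyte, and the summed reads of their 12 markers varied with those of the oocyte genes. With the pancreatic genes left out of the total, the markers summed to 1000, 2683 and 1698 RPM in Tg and 3653, 2062, 1270, 2232 and 3071 in FMTg. Both sums were lowest in Tg replicate 1 and highest in FMTg replicate 1. There were 4.18, 7.08 and 7.23 oocyte gene reads per 100 granulosa reads in Tg and 8.71, 8.25, 6.09, 6.98 and 7.27 in FMTg. The range over libraries was thus 2.08-fold, and the means were 6.16 ± 1.72 and 7.46 ± 1.04 (SD; exact permutation p = 0.214). Leaving out Tg replicate 1 gave a Tg mean of 7.16 and moved the difference from 1.30 to 0.308 (exact permutation p = 0.810). All 12 markers had higher means in FMTg (median log2 difference 0.51), 2 with an unadjusted p below 0.05 and none past the test. Those were Kitl, the ligand of the oocyte receptor KIT, which differed by 0.68 ± 0.21, and Inhba, an activin subunit, by 1.77 ± 0.68 (limma adjusted p = 0.539 and 0.705). In the fit without Tg replicate 1, 7 of the 12 means were higher, the median was 0.02, and Kitl and Inhba differed by 0.48 and 1.28. The part of follicle content in the genotype differences was not tested.

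**Figure D4:**
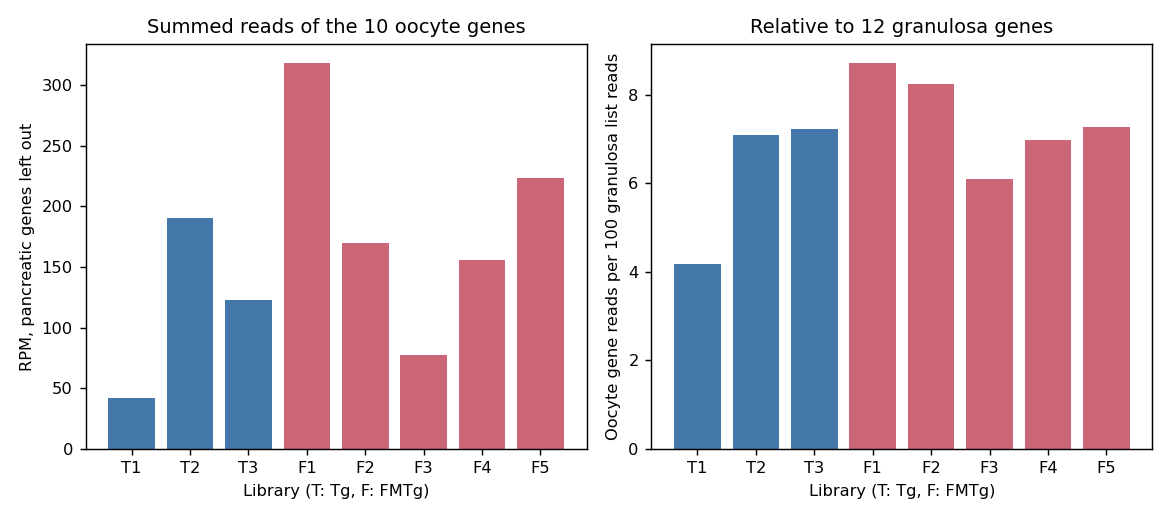
Left, summed RPM of the 10 oocyte genes with pancreatic genes left out of the total, by ovary library; right, oocyte gene reads per 100 reads of 12 granulosa markers. The left bars run from 41.8 (Tg replicate 1) to 318 (FMTg replicate 1), the right ones from 4.18 to 8.71.

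Most other oocyte genes also had higher means in FMTg when all libraries were used. Of 27 genes of a second oocyte list, 24 had higher FMTg means and 3 lower ones, none past the test, with a median log2 difference of 0.58. The split was 15 and 12 and the median 0.04 without Tg replicate 1. With all libraries H1foo differed by 1.74 ± 0.68, Kpna7, an oocyte importin, by 1.01 ± 0.47, Npm2, an egg nucleoplasmin, by 0.88 ± 0.43, and Dppa3 (Stella) by 1.09 ± 0.60 (limma adjusted p of 0.720 to 0.828). The 3 with lower means, named for that reason after their values were seen, were Khdc3 (-0.91 ± 0.53), Tle6 (-0.43 ± 0.45) and Uchl1 (-0.37 ± 0.40). Khdc3 (Filia) and Tle6 belong to the same maternal complex as Nlrp5 and Ooep. With all libraries Nlrp5 (1.62) and Ooep (0.08) had higher FMTg means, so genes of this complex did not go in 1 direction. Khdc3 rested on few reads, 7 to 12 in Tg and 0 to 13 in FMTg. Without Tg replicate 1 Khdc3 stood at -0.93 and Uchl1 at -0.79, while Tle6 turned to 0.23. H1foo was at 0.85, Kpna7 at 0.51, Npm2 at 0.40 and Dppa3 at 0.62.

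Factor, germline and signalling lists had medians near that of all genes when all libraries were used. Among 7 tested oocyte factor genes 5 had higher and 2 lower means, with a median of 0.13. Ybx2, an RNA-binding protein that stabilises stored oocyte messages, had the smallest p (0.89 ± 0.38, limma adjusted p = 0.768). The germline and meiosis list of 8 was split 4 and 4, with a median of 0.05. Receptors, SMADs and cumulus targets of GDF9 and BMP15 were split 8 and 7, with a median of 0.04 and 0 members at an unadjusted p below 0.05. In order of their p, Ptgs2 differed by -0.48 ± 0.29, Tnfaip6 by -0.47 ± 0.40, Smad5 by -0.17 ± 0.17 and Bmpr1b by 0.33 ± 0.37. The medians of the 3 lists without Tg replicate 1 were 0.16, -0.42 and -0.04, the germline list was split 3 and 5, and Bmpr1b turned to -0.10.

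A list of p53 family death genes of oocytes, with Cdkn1a beside them, had higher means in FMTg in 6 of 6 cases. The median was 0.71, with 0 calls. Cdkn1a, the p53 target that halts the cell cycle, differed by 1.14 ± 0.47 and Bbc3 by 0.72 ± 0.29 (limma adjusted p = 0.749 for both). Pmaip1 differed by 1.07 ± 0.65. Trp63 had 8 to 68 reads in Tg and 37 to 88 in FMTg, a difference of 0.70 ± 0.53. All 6 means were also higher without Tg replicate 1, with a median of 0.66. Cdkn1a was then at 1.65, Bbc3 at 0.92, Pmaip1 at 1.41 and Trp63 at 0.09. Except for Trp63 these genes are active in many ovarian cell types, and bulk values do not say in which cells they were read.

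Markers of other cells also differed between the libraries. Of 11 luteal and theca genes 10 had lower FMTg means (median -0.78), and 8 adipocyte genes all had higher ones (median 2.40), none past the test. The fit without Tg replicate 1 gave the same numbers, with medians of -0.75 and 2.15. The adipocyte markers summed to 3476 and 4272 RPM in the ovaries of the low-numbered mice and to 133 to 854 in the other 6. With the pancreatic genes left out of the total, luteal and theca markers summed to 4119, 7091 and 3840 RPM in Tg and 2357 to 3013 in FMTg, so the groups did not overlap. With all genes in the total Tg replicate 1 stood at 2913, inside the FMTg range of 2350 to 3008. Oviduct markers summed to 1111 to 3442 in Tg and 1818 to 3362 in FMTg, with all genes in the total. Their part in the oocyte gene values was not tested.

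The genes whose values most resembled the mean of the 10 over the 8 ovaries, both centred within genotype, were ranked among 15811 genes by Pearson's r, as a description over libraries that share depth and composition. Tcl1, an oocyte-expressed coactivator of Akt, came first at 0.997. Myh10 (0.993), Nap1l5 (0.992), Map1b (0.992), Sobp (0.992), Phex (0.991), Bbx (0.990) and Trim60 (0.989) followed. The members themselves ran from 0.72 to 0.98, but each is part of that mean, so their r are not comparable with those of other genes. Of 42 other oocyte and germline genes 24 had an r over 0.8, against 6.87% of the ranked genes. Among the 42 the lowest were Foxo3, which holds primordial follicles dormant, at -0.63, and Tle6 at -0.44. All these r include Tg replicate 1, the library with the pancreatic reads, and are not given without it. The genotype difference of Tle6 turned from -0.43 to 0.23 when that library was left out, so its r may rest on 1 library.

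Across tissues the genes were highest in the libraries labelled ovary. In Tg mice 9 of the 10 genes were tested and all 9 were higher in the ovary than in the mean of the other 4 tissues, against 30.1% of 16251 genes tested. In FMTg mice the same 9 were higher, against 24.2% of 16153. Figla was below the filter on low values in both. Without the ovary libraries 6 of the 9 in Tg and 7 of the 9 in FMTg would have been below that filter, so these counts follow largely from the choice of oocyte genes. The log2 differences ran from 2.39 ± 0.41 (Nobox) to 4.87 ± 0.69 (Zp2) in Tg and from 3.84 ± 0.32 (Nobox) to 6.24 ± 0.46 (Nlrp5) in FMTg. Only Oosp1 in Tg overlapped between the ovary and other tissues, where its highest value was 4.18 and its lowest in the ovary 4.09.

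**Figure D5:**
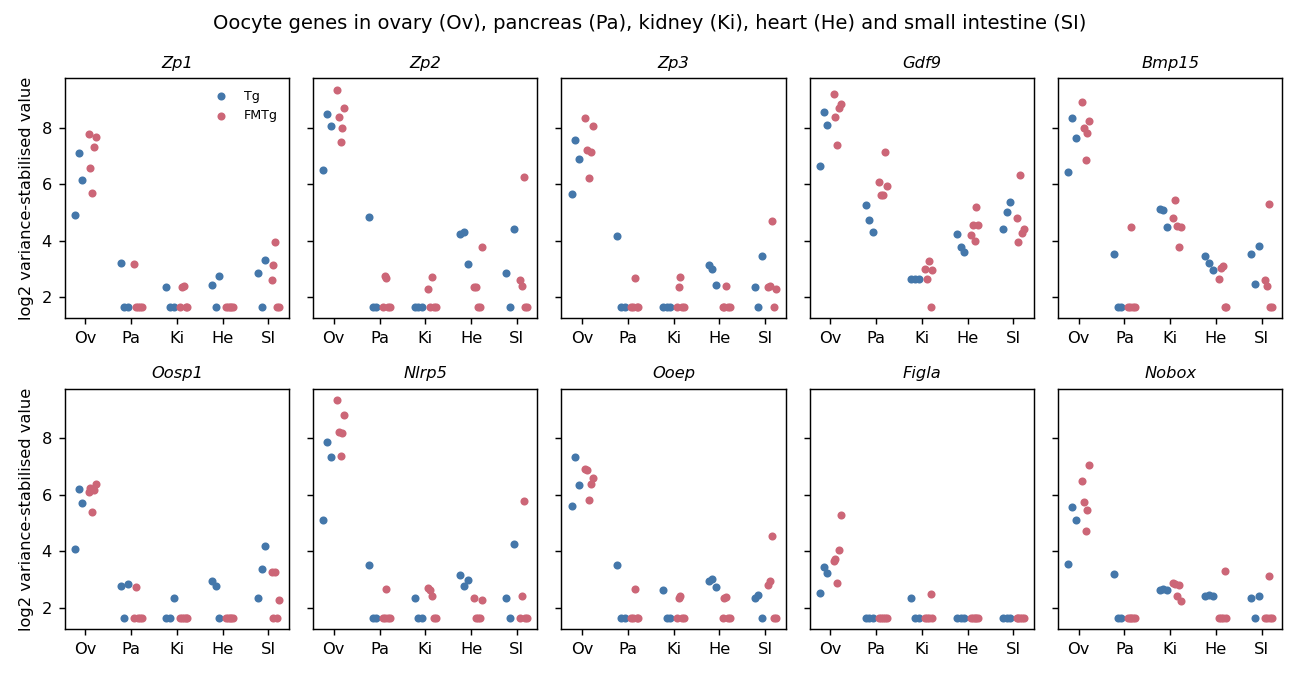
Log2 variance-stabilised values of the 10 oocyte genes in all 40 libraries, by tissue (Ov ovary, Pa pancreas, Ki kidney, He heart, SI small intestine) and genotype; a gene without reads stands at 1.65. Most values outside the ovary lie near that floor, with Gdf9 above it in nearly all libraries and Bmp15 above it in 8 of 8 kidney libraries.

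Outside the ovary a few reads of these genes were left, and they were spread unevenly. In 32 libraries the 10 genes summed to 0.687 to 20.8 RPM. Gdf9 had reads in 31 of the 32 libraries and Bmp15 in 22. Bmp15 had 37, 35 and 21 reads in Tg kidneys and 37, 49, 19, 15 and 30 in FMTg kidneys, where the other 8 genes besides Gdf9 summed to 1 to 8 reads per library. Gdf9 had 20, 26 and 37 reads in Tg small intestine and 30, 11, 85, 15 and 24 in FMTg small intestine. Figla had 3 reads outside the ovary, all in the kidney.

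No tested member passed the genotype test outside the ovary. Of the members, 1 was tested in pancreas, 2 in kidney, 3 in heart and 5 in intestine, and 0 passed, with 2 at an unadjusted p below 0.05. Over all genes tested the percent called was 0.446% in pancreas, 0.616% in kidney, 0.0190% in heart and 0% in intestine. The shares of all genes that were apart or had an unadjusted p below 0.05 are not given for these tissues. The 2 unadjusted p and the case below thus have no background to be read against. Gdf9 in the pancreas was the 1 tested case in which the groups did not overlap, with 16, 8 and 6 reads in Tg and 31, 22, 26, 22 and 19 in FMTg. Every FMTg library exceeded the highest Tg library, with a log2 difference of 1.30 ± 0.55 (exact permutation p = 0.0179, the smallest possible; limma adjusted p = 0.570). Uqcrq, the mitochondrial gene 192 bases from Gdf9, had 462, 480 and 453 reads there in Tg and 331 to 698 in FMTg. Divided by size factors these were 948, 1237 and 1058 in Tg and 1354, 1189, 1140 and 1577 in FMTg replicates 1, 2, 3 and 5, with FMTg replicate 4 above all of them. The groups overlapped, and Gdf9 was also highest in FMTg replicate 4. Because strand is not stated its part in the Gdf9 reads was not tested. The log2 difference of Zp2 in the heart was larger in size, but its groups overlapped. It had 14, 14 and 4 reads in Tg and 1, 1, 0, 0 and 13 in FMTg, with a difference of -1.54 ± 0.59 (limma adjusted p = 0.760). Among members below the filter, Zp3, Nlrp5 and Ooep in the heart had every Tg log2 value above every FMTg value. They rested on 1 to 4, 2 to 4 and 2 to 3 reads in Tg and on 0 to 1 in FMTg. The other members below the filter in the heart overlapped or had no reads there. The share of all genes that were apart is not given for the heart, so Zp3, Nlrp5 and Ooep also have no background to be read against.

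Reads of the 8 genes other than Gdf9 and Bmp15 reached more than 20 in 5 of the 32 libraries, a limit set after seeing the data. They were Tg replicate 1 of the pancreas (28 reads), Tg replicates 1 and 2 of the heart (30 and 25), Tg replicate 3 of the small intestine (55) and FMTg replicate 3 of the small intestine (198). All 5 came from mice that also gave an ovary library, of which there were 23 libraries outside the ovary, with 0 to 198 reads. The 9 libraries of mice without an ovary library had 0 to 14 reads. In the small intestine FMTg replicate 3, Ovgp1, the oviduct glycoprotein, had 5202 reads against 17 to 1321 in the other 7, and Amh had 86 against 9 to 25. In pancreas Tg replicate 1 Ovgp1 had 1444 reads, against 0 to 247 in the other 7, and in heart Tg replicate 1 it had 3345, against 27 to 472. In the small intestine Tg replicate 3 had 1321, the highest of the other 7. Heart Tg replicate 2, with 25 reads of the 8 genes, had only 66 of Ovgp1, and 1 of Foxl2 and 2 of Fshr, both granulosa markers. These lay within the values of the other heart libraries, as did its summed granulosa markers (297 RPM, against 217 to 390). The granulosa markers Amh and Inha were higher there than in most hearts. Amh had 23 reads, as in Tg replicate 1, against 3 to 16 in the others. Inha had 83, against 144 in Tg replicate 1 and 21 to 70 in the others. The source of these reads was not tested.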

How the data were processed

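Total RNA of flash-frozen tissue was extracted with Trizol and sequenced as standard Illumina libraries, per the labels' protocols. The submitters' processing notes name STAR 2.6.0b, the build GRCm38 and DESeq2. The read counter, annotation, strand setting and gene filter are not given in the sources used here. The authors deposited log2 values of a variance-stabilising transformation over all 40 libraries, on which genes with no read share 1 minimum. Read numbers were recovered by inverting it, and 100% of them were whole within 0.01. Recovered totals were 7.16 to 29.0 M reads per library, and 18003 of 18024 genes matched GENCODE M21 by ID. Precision is that of the read numbers given, and Wilson intervals cover counting error only.

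Genes whose mean was at least 1 log2 unit above the lowest value were fitted per tissue with limma 3.58.1 in R 4.3.3, with a mean-variance trend, and p-values were adjusted by Benjamini-Hochberg over all genes tested at 0.05. Single values were tested by two-sided exact permutation over the 56 divisions of 8 libraries into 3 and 5. Replicates were libraries of separate mice. For the tissue contrast in Tg, the labels give the same mouse number to every tissue of a replicate, so the samples are paired by mouse. The FMTg libraries came from 10 mice, several of which gave more than 1 tissue, and their tissue contrast was fitted without mouse as a block. Deviations of same-mouse Tg libraries correlated from -0.20 to 0.43 over 30 pairs (median 0.06). Pancreatic genes left out of a total were the acinar list and genes at 1 read per M reads (RPM) or more and 10 times higher in Tg pancreas than in Tg kidney, heart and small intestine. The read recovery and the limma fit were tested on simulated ovary libraries in which each gene varied on its own. These held no shift shared by the oocyte genes and no library with extra pancreatic reads, so the test does not cover either. Alternatives were voom on the recovered reads, RPM with pseudocounts of 1 and 0.1, no filter, no trend, library weights, 1 model of all libraries and left-out libraries. The genes and lists were chosen with earlier results of these data known, so no list serves as independent support. Named genes are the 10 members, up to 4 genes of smallest p of other lists, and the 10 most like the members' mean, of which the last 2 are not reported here.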

Additional observations from a re-analysis of the deposited data

Results flagged for a closer look

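In 36 groups of 5 FMTg libraries checked with Dixon's test at its 95% critical value, 7 values stood far from the other 4, where chance marks about 1 in 20 groups. In the small intestine, FMTg replicate 3 had 20.8 RPM (reads per M reads) summed over the 10 oocyte genes. In the same library Nlrp5 stood at a log2 value of 5.80, Zp2 at 6.25 and Bmp15 at 5.31. These 4 values come from 1 library and are not independent. In the ovary, Gdf9 held 24.8% of the reads of the 10 genes in FMTg replicate 4, and Nobox held 5.34% in FMTg replicate 5, both above the other FMTg libraries. Oosp1 had a log2 value of 5.39 in ovary FMTg replicate 3, below the other FMTg ovaries. No explanation of these values was tested.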

How the results depend on the processing

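No alternative called any of the 10 genes between genotypes in the ovary, and their smallest adjusted p ran from 0.336 (1 model of all libraries) to 1.00. Over all genes tested limma made 0 calls, against 69 with 1 model of all libraries, 17 with library weights, 3 without Tg replicate 2 and 1 without FMTg replicate 3. The median log2 difference of the 10 genes was 0.73. It ran from 0.17 (without Tg replicate 1) to 1.13 (without Tg replicate 2) when single libraries were left out, and was 0.46 with library weights and 0.05 without Tg replicate 1 and the low-numbered mice, a choice made after seeing the data. With single libraries left out Bmp15 ran from -0.02 (without Tg replicate 1) to 0.93 and Ooep from -0.34 (without Tg replicate 1) to 0.53, both highest without Tg replicate 2. With the low-numbered mice left out as well, Bmp15 was -0.07, Oosp1 -0.05 and Ooep -0.31. Ooep was also at -0.02 and -0.01 without FMTg replicate 1 and FMTg replicate 2, at -0.01 with voom and at -0.06 in 1 model of all libraries. The cause was not tested. The differences of the other 7 genes were at or above 0 in all 19 alternatives. Left-out libraries moved the Nlrp5 share difference between 6.17 and 9.14 points and that of Bmp15 between -4.48 and -2.73, without overlap between groups. The tissue contrast called 8 to 9 of the 10 genes in Tg when ovary libraries were left out and 7 to 8 in FMTg. It called 10 in Tg without the filter and 6 in FMTg without the low-numbered mice. The filter on low values was applied anew whenever ovary libraries were left out. A gene could thus leave these counts by falling below the filter untested, so a lower count is not a weaker contrast. Outside the ovary 0 of these genes were called in any alternative run.

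Ovary replicate numbers mark different mice, and deviations of same-numbered Tg and FMTg libraries correlated at -0.48, -0.06 and -0.59, so they share only a number. With the replicate number as a block 0 of the 10 genes were called and the median difference was 0.57. With mouse as a block in the Tg tissue contrast 9 of the 10 genes were called, as without it. No fit with that block was run for the FMTg tissue contrast.

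Depth limits Figla and Nobox most, with 1 to 28 and 5 to 127 reads. Tg replicate 1 held 331 reads of the 10 genes, the fewest of the 8 ovaries.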
